A study of Mus musculus with 342 samples.

Results

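Nqo1, Ephx1, Osgin1 and Gstt2 were followed across the livers of 44 mouse lines, with and without a dose of TAK-875. They are 4 of the 9093 genes that had a probe set of their own on the array. They are antioxidant or detoxification genes that were chosen with earlier results of these data known, so their tests and ranks describe chosen genes. Each has 1 probe set, so no choice between probe sets was made. The lines belong to the Collaborative Cross, a panel of recombinant inbred mice whose founders are genetically diverse. All mice were male and about 8 to 10 weeks old. Each received 1 oral gavage of either vehicle, 0.5% methylcellulose in water, or TAK-875 at 600 mg/kg in that vehicle. TAK-875 (fasiglifam) is an agonist of the fatty acid receptor GPR40. Livers were taken 24 hours after the dose. Mice were dosed in matched pairs of 1 vehicle and 1 TAK-875 mouse of the same line, with 4 pairs in 39 lines and 3 pairs in 5 lines. This gave 171 pairs and 342 arrays, 1 mouse on each. A line is 1 inbred genotype, so its mice repeat a genotype and the lines are the unit for a mean over genotypes.

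The antioxidant response is run by NRF2, a transcription factor encoded by Nfe2l2. KEAP1 holds NRF2 back in resting cells and releases it when electrophiles or oxidants modify its cysteines. Freed NRF2 pairs with small MAF proteins and binds antioxidant response elements near genes that detoxify reactive molecules. Nqo1 encodes NAD(P)H quinone dehydrogenase 1, which reduces quinones and is a standard readout of NRF2. Ephx1 encodes microsomal epoxide hydrolase, which opens reactive epoxides and is also known as a target of the xenobiotic receptor CAR. Osgin1 encodes oxidative stress induced growth inhibitor 1. Gstt2 encodes a theta-class glutathione transferase, which conjugates electrophiles to glutathione.

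Promoter sequence is shown because 3 of the genes moved one way and Osgin1 the other. RefSeq's promoter table for build GRCm38.p6 matched 3 of the 4 genes, all but Gstt2. The 250 bases before the start listed in that table are printed 5′ to 3′ on the gene's strand. For Nqo1 and Ephx1 this start is the outer end of the annotated gene. For Osgin1 it lies inside the annotated gene, and the bases before the outermost start of Osgin1 were not searched. The printed bases lie at chr8:107403206-107403455 (minus strand) for Nqo1, at chr1:181017570-181017819 (minus strand) for Ephx1 and at chr8:119436897-119437146 (plus strand) for Osgin1.
Nqo1: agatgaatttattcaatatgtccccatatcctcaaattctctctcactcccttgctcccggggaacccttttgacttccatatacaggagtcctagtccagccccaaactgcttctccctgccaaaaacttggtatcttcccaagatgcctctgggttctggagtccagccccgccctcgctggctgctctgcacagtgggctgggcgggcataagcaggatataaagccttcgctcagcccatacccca
Ephx1: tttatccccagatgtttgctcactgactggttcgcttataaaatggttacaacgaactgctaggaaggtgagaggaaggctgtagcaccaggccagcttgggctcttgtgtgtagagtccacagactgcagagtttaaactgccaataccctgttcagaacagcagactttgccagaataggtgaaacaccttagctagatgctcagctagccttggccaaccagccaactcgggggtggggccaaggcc
Osgin1: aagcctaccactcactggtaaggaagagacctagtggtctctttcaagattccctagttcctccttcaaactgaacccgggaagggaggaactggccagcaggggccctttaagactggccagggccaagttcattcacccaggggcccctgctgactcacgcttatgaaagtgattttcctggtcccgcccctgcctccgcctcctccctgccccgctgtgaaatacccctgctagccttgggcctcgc
The core of the antioxidant response element, TGACNNNGC, was searched on both strands of these bases and the 50 after the start. It had 0 matches in the 3 windows, so no letter is in capitals. Of 32851 promoters of the same length in the table, 4071 (12.4%) held it. The search covers these letters in these windows and no other sequence.

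Values are log2 expression per probe set as deposited. Array medians lay between 5.40 and 6.22, and the median of the TAK-875 array minus that of its vehicle partner was 0.01 ± 0.15 (SD, 171 pairs). By the mean over lines, 1388 of 9093 genes rose (15.3%) and 1078 fell (11.9%) at an adjusted p under 0.05 in limma. Rises made up 56.3% of the calls, but 44.1% with each array centred on its median and 46.0% after quantile normalization was applied again. Of the 342 arrays, 9 had a mean correlation with the other arrays of their group below 0.922, and all 9 were TAK-875 arrays, 4 of them from CC010/GeniUnc. The liver label was checked against 8 measured hepatocyte markers, whose mean level was between 12.79 and 13.01 over the vehicle groups of the lines and between 12.83 and 13.04 over the TAK-875 groups.

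Over the 44 lines, Nqo1, Ephx1 and Gstt2 rose with TAK-875 and Osgin1 fell. The response is the TAK-875 minus vehicle difference on the log2 scale, averaged over the pairs of a line. Gstt2 rose most, by 0.62 ± 0.33 (SD, 44 lines), a 1.53-fold change (limma adjusted p = 4.15e-14). Nqo1 rose by 0.51 ± 0.43, or 1.43-fold (limma adjusted p = 6.36e-09). Ephx1 rose by 0.39 ± 0.25, or 1.31-fold (limma adjusted p = 8.74e-12). Osgin1 fell by 0.40 ± 0.42, or 1.32-fold (limma adjusted p = 1.10e-06). Ranked by the size of the mean response among all 9093 genes, Gstt2 was at rank 17, Nqo1 at 47, Osgin1 at 102 and Ephx1 at 112. Each change kept its direction and its call under every scaling tried, with each line left out in turn and with each replicate number left out.

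The direction was shared by most lines. Gstt2 was higher in 43 of 44 lines and in 163 of 171 pairs, and Ephx1 in 43 lines and 154 pairs. Nqo1 was higher in 40 lines and 140 pairs. Osgin1 was lower in 36 lines and 129 pairs. In 31 of 44 lines Nqo1, Ephx1 and Gstt2 were all higher and Osgin1 lower, and 93 of 171 single pairs showed that pattern. In 7 lines all 4 genes were higher. With pairs grouped by their number within the line, the mean response of Nqo1 was 0.44 in pairs numbered 1, 0.56 in pairs numbered 2, 0.46 in pairs numbered 3 and 0.61 in pairs numbered 4. Gstt2 was at 0.57, 0.70, 0.54 and 0.68 in the same order, and Ephx1 at 0.34, 0.41, 0.41 and 0.37. Osgin1 was at -0.41, -0.26, -0.39 and -0.54.

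Groups of 3 or 4 mice per line overlapped more for some genes than for others. All TAK-875 mice of a line were above all of its vehicle mice in 31 lines for Gstt2, 23 for Ephx1 and 7 for Nqo1. Over all genes and lines this held in 3.92% of cases. For Osgin1 all TAK-875 mice were below all vehicle mice in 10 lines, against 3.39% over all genes and lines. Tested within each line over all genes, Gstt2 passed in 19 lines, Ephx1 in 10, Nqo1 in 5 and Osgin1 in 0, each time as a rise. Of all gene-by-line tests, 0.895% passed as rises and 0.749% as falls. The test used 1 spread per gene shared by all lines, so its p does not measure the SD printed beside a line's response. Its adjustment was made over all genes within each line, so passing also depended on the other genes of that line. Without the adjustment, at a limma p under 0.05, Osgin1 was lower in 11 lines and higher in 1. With 1 replicate number left out in turn, the lines that passed numbered 8 to 13 for Gstt2, 5 to 11 for Ephx1, 2 to 5 for Nqo1 and 0 to 1 for Osgin1. At least 1 of the 4 genes passed in 22 lines. The spread between pairs of a line differed between the genes, with an SD of the response within lines of 0.30 for Ephx1, 0.37 for Gstt2, 0.59 for Nqo1 and 0.69 for Osgin1.

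**Figure D1:**
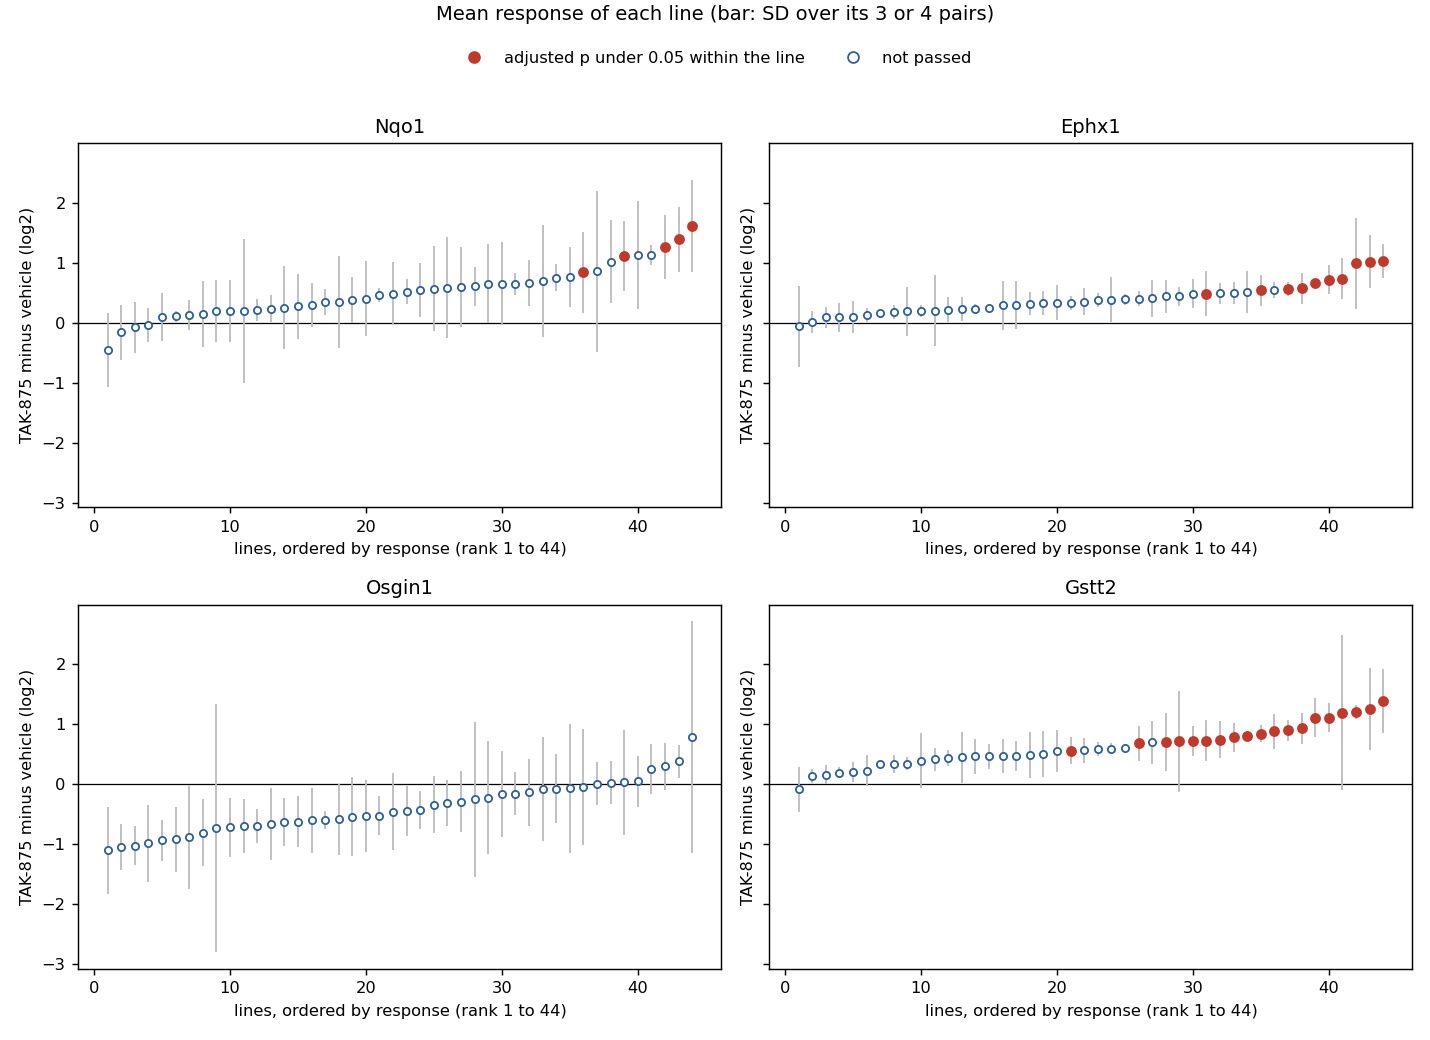
Mean response (TAK-875 minus vehicle, log2) of each of the 44 lines for each gene, in order of response, with bars for the SD over the 3 or 4 pairs of the line; filled points passed within the line at an adjusted p under 0.05. Nearly all points lie above 0 for Gstt2, Ephx1 and Nqo1, and 36 of 44 lie below 0 for Osgin1, which has no filled point.

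Nqo1 was the dimmest of the 4 genes, at a mean level near the middle of all genes (percentile 50.7), and its level varied widely between lines. Over the 171 vehicle mice the lowest value was 2.88, the median 6.01 and the highest 8.92, and over the 171 TAK-875 mice these were 4.48, 6.61 and 8.47. The groups overlapped over most of their range. Vehicle line means ran from 3.82 in CC008/GeniUnc to 7.92 in CC019/TauUnc, a 17.1-fold range. The next lowest were CC058/Unc at 4.37 and CC052/GeniUnc at 4.42, and the next highest CC024/GeniUnc at 7.72 and CC071/TauUnc at 7.37. Vehicle level differed between lines (limma F test, adjusted p = 5.61e-33), as it did for 98% of all genes. Ordered by vehicle mean, 2 of the 43 steps between neighbouring lines exceeded the SD within lines of 0.46, the larger being 0.66, just above the 3 lowest lines. All other neighbours in that order lay closer than the spread between mice of a line. With so many lines in order most steps are small, so steps do not show whether lines farther apart differ. This holds for the other genes too.

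The largest responses of Nqo1 were in CC029/Unc, CC008/GeniUnc and CC021/Unc. In CC029/Unc the vehicle mice were at 5.94, 5.69, 5.64 and 5.82 and their TAK-875 partners at 6.85, 7.69, 8.15 and 6.86. That is a response of 1.61 ± 0.77 (SD, 4 pairs), with no overlap between the groups (limma adjusted p = 1.01e-04). In CC008/GeniUnc, the line with the lowest vehicle level, vehicle mice were at 3.97, 3.76, 4.67 and 2.88 and TAK-875 mice at 4.91, 4.67, 6.60 and 4.66. Every pair rose there, while the groups met at 4.67 (response 1.39 ± 0.54, limma adjusted p = 0.00250). In CC021/Unc the response was 1.26 ± 0.53 (limma adjusted p = 0.00638), and the 4 TAK-875 mice, at 6.77 to 7.34, were all above the vehicle mice, at 5.30 to 6.12. Nqo1 also passed in CC007/Unc (1.11 ± 0.59) and CC052/GeniUnc (0.84 ± 0.68). It did not pass in CC065/Unc (1.13 ± 0.17), CC030/GeniUnc (1.13 ± 0.90) or CC058/Unc (1.02 ± 0.69), whose responses were larger than that of CC052/GeniUnc.

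In 4 lines the mean response of Nqo1 was below 0, and none of these passed. CC053/Unc had the lowest, with 3 vehicle mice at 6.01, 5.81 and 5.61 and TAK-875 partners at 4.98, 5.29 and 5.80, a response of -0.45 ± 0.62 (limma adjusted p = 0.462). CC059/TauUnc was at -0.16 ± 0.46 and CC042/GeniUnc at -0.08 ± 0.43. The 3 lines with the highest vehicle level had responses of 0.22 ± 0.18 (CC071/TauUnc), 0.09 ± 0.40 (CC024/GeniUnc) and 0.10 ± 0.09 (CC019/TauUnc). The vehicle arrays enter both the level and the response of a line, so no test of one against the other is given. The response of Nqo1 differed between lines (limma F test, adjusted p = 0.0178), as did that of 16.2% of all genes. With the spread within lines taken out, the SD between lines was 0.30. That call was lost without the pairs numbered 1, 2 or 3 (adjusted p = 0.0998, 0.154 and 0.180).

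Ephx1 was among the brightest genes on the array (percentile 98.2), and of the 4 genes its level differed least between lines. Vehicle mice were at 9.03 at the lowest, 11.40 at the median and 12.19 at the highest, and TAK-875 mice at 10.36, 11.73 and 12.37. Each of these marks was higher in TAK-875 mice, while the ranges of the groups overlapped over most of their length. Vehicle line means ran from 10.55 in CC008/GeniUnc, followed by CC044/Unc at 10.71 and CC052/GeniUnc at 10.82, to 11.86 in CC021/Unc, 11.88 in CC027/GeniUnc and 11.91 in CC032/GeniUnc. This is a 2.57-fold range, and no neighbours in the order differed by more than the SD within lines of 0.27. Line means still differed as a whole (limma F test, adjusted p = 2.68e-14).

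CC065/Unc, CC044/Unc and CC008/GeniUnc had the largest responses of Ephx1. In CC065/Unc the 3 vehicle mice were at 11.00, 10.31 and 11.16 and the TAK-875 mice at 11.98, 11.65 and 11.92 (response 1.03 ± 0.29, limma adjusted p = 1.18e-04). In CC044/Unc vehicle mice were at 10.28, 10.70 and 11.14, while the TAK-875 mice lay within 11.71 to 11.74 (response 1.02 ± 0.44, limma adjusted p = 7.93e-05). Both lines had no overlap between the groups. In CC008/GeniUnc vehicle mice were at 11.13, 10.83, 11.21 and 9.03 and TAK-875 mice at 11.61, 11.40, 12.00 and 11.14. The response was 0.99 ± 0.76 (limma adjusted p = 1.22e-06). The vehicle mouse at 9.03, the lowest Ephx1 value of all mice, lowered the vehicle mean of that line and raised its response and spread. The other 3 pairs rose less, and the line was not ranked without that mouse.

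Responses of Ephx1 were smallest in CC010/GeniUnc (-0.06 ± 0.68), CC002/Unc (0.01 ± 0.18) and CC040/TauUnc (0.09 ± 0.18). In CC010/GeniUnc, whose 4 TAK-875 arrays were all among those with a low correlation with their group, 3 pairs rose and the other TAK-875 mouse was at 10.36. Among lines with a steady rise, CC052/GeniUnc had vehicle mice at 11.02, 10.58, 10.81 and 10.87 and TAK-875 mice at 11.57, 11.27, 11.51 and 11.58. The 4 pair differences there had an SD of 0.07 around a mean of 0.66 (limma adjusted p = 8.30e-04). In CC041/TauUnc the rise was 0.56 ± 0.11 (limma adjusted p = 0.00672). The response of Ephx1 differed between lines (limma F test, adjusted p = 0.00158), with an SD between lines of 0.19. Without the pairs numbered 2 or 3 it did not pass (adjusted p = 0.0572 and 0.106).

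Osgin1 was the member that fell. Vehicle mice were at 7.35 at the lowest, 9.53 at the median and 10.80 at the highest, and TAK-875 mice at 6.91, 9.10 and 10.93. The ranges of the groups thus nearly coincided, and the fall was seen in pairs and line means. Vehicle line means ran from 8.28 in CC053/Unc, 8.63 in CC070/TauUnc and 8.66 in CC005/TauUnc to 10.13 in CC044/Unc, 10.14 in CC060/Unc and 10.49 in CC058/Unc, a 4.64-fold range (limma F test, adjusted p = 7.21e-10). No neighbours in that order differed by more than the SD within lines of 0.44.

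The largest falls of Osgin1 were in CC002/Unc, CC004/TauUnc and CC060/Unc, at -1.10 ± 0.73, -1.05 ± 0.38 and -1.03 ± 0.33. In CC004/TauUnc vehicle mice were at 10.10, 9.71, 9.77 and 9.70 and TAK-875 mice at 8.81, 8.35, 9.25 and 8.66, with no overlap. The TAK-875 array at 8.66 was 1 of the 9 with a low correlation with its group. In CC060/Unc vehicle mice were at 9.72, 10.22, 10.48 and 10.11 and TAK-875 mice at 8.41, 9.52, 9.18 and 9.32, again with no overlap. None of the 3 passed within its line (limma adjusted p = 0.722, 0.0849 and 0.592). All pairs fell in 18 lines, and all rose in 1 line, CC008/GeniUnc, where vehicle mice at 9.53, 9.23, 8.85 and 9.19 stood against TAK-875 mice at 9.99, 9.56, 8.88 and 9.88 (0.38 ± 0.27, limma adjusted p = 0.702). CC028/GeniUnc was at 0.30 ± 0.39.

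The highest mean response of Osgin1, 0.78 ± 1.93 in CC053/Unc, rested on 1 pair that went from 7.45 to 10.44, while the other pairs went from 8.74 to 8.18 and from 8.65 to 8.57. That TAK-875 array was 1 of the 9 with a low correlation with its group, as was the array of the lowest Osgin1 value of all mice, 6.91 in a TAK-875 mouse of CC042/GeniUnc. The response of Osgin1 did not pass as different between lines (limma F test, adjusted p = 0.139, SD between lines 0.22). Without the 9 pairs that hold such an array it did (adjusted p = 0.0455), and Osgin1 then passed within 2 lines.

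Gstt2 had the most lines with a clear rise. Vehicle mice were at 6.22 at the lowest, 9.81 at the median and 10.62 at the highest, and TAK-875 mice at 6.86, 10.42 and 11.40. Most lines sat in a narrow band of vehicle level, and 3 lay far below it. CC022/GeniUnc was at 6.46 ± 0.23 (SD, 4 mice), CC030/GeniUnc at 7.18 ± 0.65 and CC008/GeniUnc at 8.34 ± 0.51, while the median line was at 9.77. The highest were CC005/TauUnc at 10.25, CC019/TauUnc at 10.32 and CC039/Unc at 10.50, so that line means spanned a 16.5-fold range (limma F test, adjusted p = 2.64e-55). Only 3 of the 43 steps between neighbouring lines exceeded the SD within lines of 0.24, the largest being 1.16, between CC030/GeniUnc and CC008/GeniUnc, and the second largest 0.72.

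**Figure D2:**
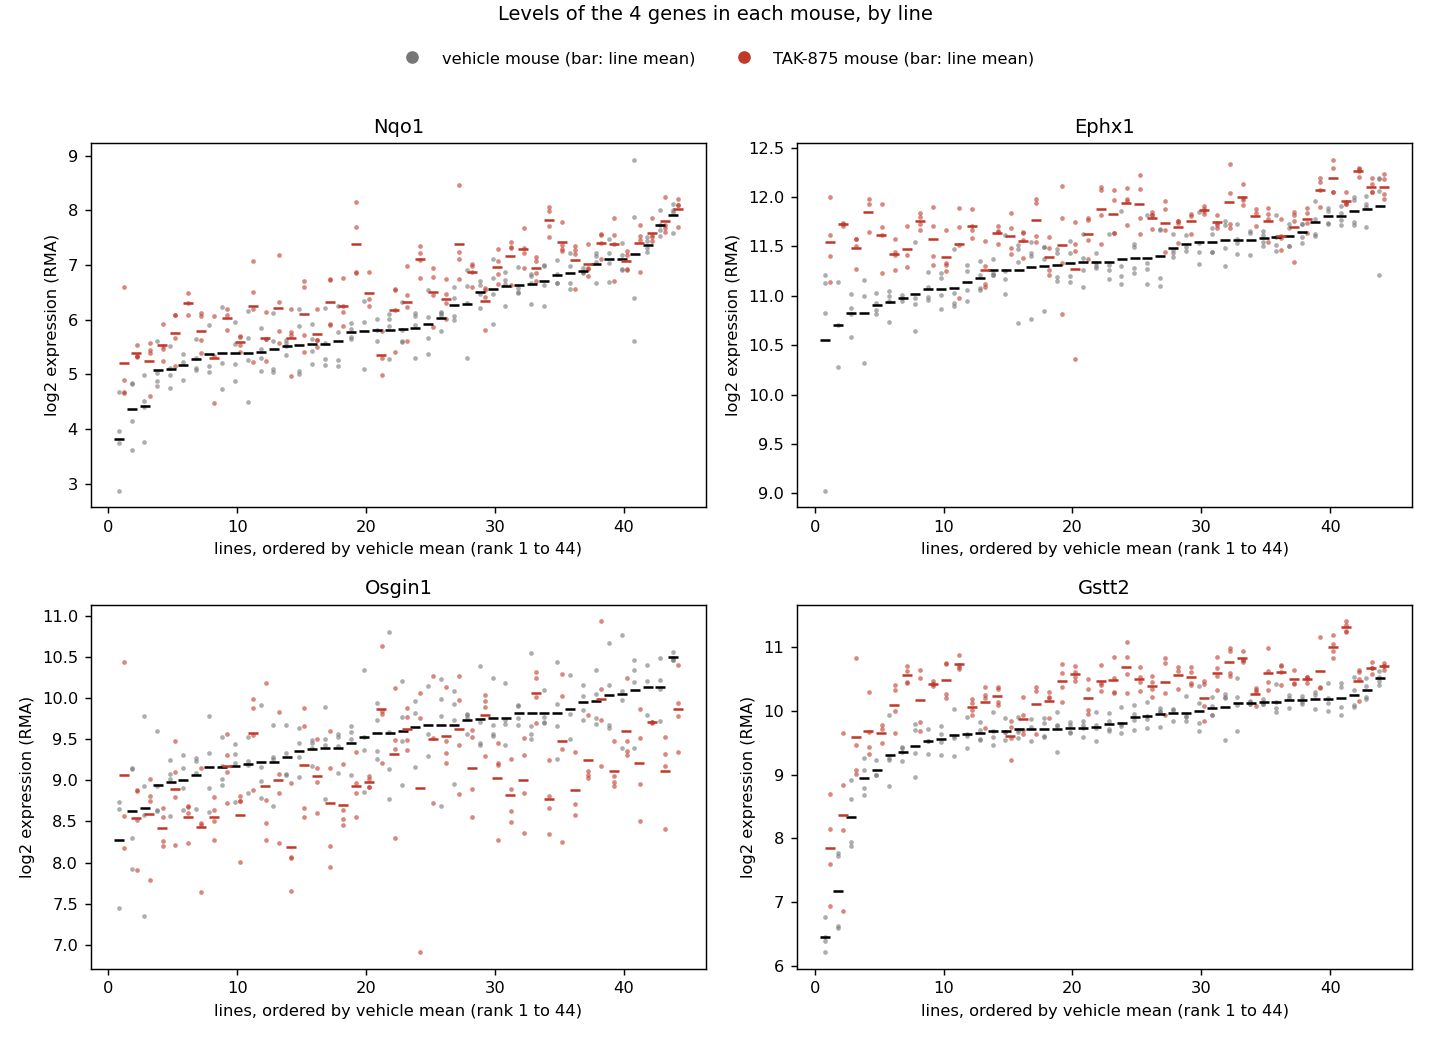
Log2 expression of each gene in every vehicle mouse (grey) and TAK-875 mouse (red), with lines ordered by their vehicle mean and bars at the line means. Red bars lie above black bars in nearly all lines for Gstt2 and Ephx1, most red bars lie below for Osgin1, and the lowest lines of Nqo1 and Gstt2 stand apart from the rest.

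The 3 lines with the lowest vehicle level of Gstt2 were also among its strongest responders. In CC022/GeniUnc vehicle mice were at 6.40, 6.45, 6.22 and 6.77 and TAK-875 mice at 7.59, 8.14, 6.94 and 8.70. All TAK-875 mice were above all vehicle mice, and the response of 1.39 ± 0.54 was the largest of any line (limma adjusted p = 1.85e-08). In CC008/GeniUnc vehicle mice were at 8.91, 7.88, 8.62 and 7.94 and TAK-875 mice at 9.46, 9.01, 10.82 and 9.08 (1.25 ± 0.69, limma adjusted p = 9.53e-07). CC030/GeniUnc was less even. Its vehicle mice at 7.72, 6.60, 6.63 and 7.77 had partners at 8.14, 9.65, 6.86 and 8.83, so that the response was 1.19 ± 1.29 (limma adjusted p = 5.09e-06). Even after the dose these lines stayed below most others, with TAK-875 means of 7.85, 9.59 and 8.37 against a median line at 10.47. As for Nqo1, level and response share the vehicle arrays, so no test of one against the other is given.

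CC051/TauUnc had a large and even rise of Gstt2 from an ordinary level. Its vehicle mice were at 9.21, 9.35, 9.43 and 9.42 and its TAK-875 mice at 10.44, 10.63, 10.45 and 10.70 (1.20 ± 0.12, limma adjusted p = 7.56e-06). At the other end, CC025/GeniUnc was at -0.09 ± 0.38, CC040/TauUnc at 0.14 ± 0.12 and CC010/GeniUnc at 0.16 ± 0.16. The lines with the highest vehicle levels rose by 0.22 ± 0.26 (CC005/TauUnc), 0.34 ± 0.10 (CC019/TauUnc) and 0.19 ± 0.09 (CC039/Unc), and none of these passed within its line. The response of Gstt2 differed between lines (limma F test, adjusted p = 1.42e-04, SD between lines 0.27), and it did so with each replicate number left out.

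Gstt2 lies on chromosome 10 in a cluster of theta-class transferases, in the order Ddt, Gstt3, Gstt1, Gstt4, Gstt2 and Mif in RefSeq's GRCm38.p6 annotation. Ddt and Mif encode related tautomerases, and Gstt4 was not measured. CC022/GeniUnc, CC030/GeniUnc and CC008/GeniUnc were the 3 lowest of all 44 lines in vehicle level for Gstt2, Gstt1, Ddt and Mif. Ddt was at 10.75, 10.77 and 10.91 in these lines. Gstt1 was at 6.37, 6.32 and 6.30 there, against 10.43 over all arrays. Low Gstt1 was also seen in CC025/GeniUnc (7.33) and CC017/Unc (7.48), where Gstt2 was at 9.69 and 9.31. In CC022/GeniUnc, CC030/GeniUnc and CC008/GeniUnc, Mif was at 5.52 ± 1.26 (SD over mice), 5.27 ± 0.41 and 5.17 ± 1.00. The next lowest line for Mif was close, CC017/Unc at 5.70. Gstt3, which lies between Ddt and Gstt1, was at 7.20, 7.31 and 8.32 in the 3 lines. CC008/GeniUnc was thus not among its 3 lowest, with CC051/TauUnc at 7.41 and CC058/Unc at 7.72. Of all 9093 genes, 7 had CC022/GeniUnc, CC030/GeniUnc and CC008/GeniUnc as their 3 lowest. These lines were picked by their level of Gstt2, so Gstt2 is 1 of the 7 by that choice. Of the 7, 6 were among the 472 measured genes of chromosome 10, namely Ddt, Gstt1, Gstt2, Mif, Wdr18 and Atp5d. The other was Dmap1 on chromosome 4. Across the 44 lines the vehicle level of Gstt2 correlated with that of Ddt at r = 0.80, of Gstt1 at 0.75, of Mif at 0.59 and of Gstt3 at 0.57. Without the 2 lowest lines these were 0.60, 0.55, 0.42 and 0.38. CC008/GeniUnc was still included there, so these values do not show the correlation outside the 3 low lines. For Derl3 and Smarcb1, the next measured genes beyond Mif, r with Gstt2 over the 44 lines was -0.07 and 0.20. These are descriptions over lines that share arrays.

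Neighbours of Gstt2 differed in response. Gstt3 rose by 0.42 ± 0.51 (SD, 44 lines; limma adjusted p = 1.18e-05), in 33 lines, and Gstt1 fell by 0.14 ± 0.28 (limma adjusted p = 0.00574), with a rise in only 6 lines. In CC022/GeniUnc, CC030/GeniUnc and CC008/GeniUnc, Gstt3 rose by 1.34, 1.72 and 1.21, and Gstt1 by 0.39, 0.76 and 0.85. Gstt3 was also the gene whose response was most like that of Gstt2 over the 44 lines (r = 0.72, and 0.65 without the 2 lines lowest in Gstt2). The latter value still includes CC008/GeniUnc. Each of these genes has 1 probe set, so a lower level and a sequence difference under the probes cannot be told apart. Genes of a family can be similar in sequence, and binding of 1 gene's transcript to another's probes was not tested. Beyond Mif, Derl3 rose by 0.84 ± 0.81 (limma adjusted p = 1.20e-07), with a response r of 0.03 with Gstt2. Smarcb1 was at 0.08 ± 0.27 and did not pass, with a response r of 0.32.

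**Figure D3:**
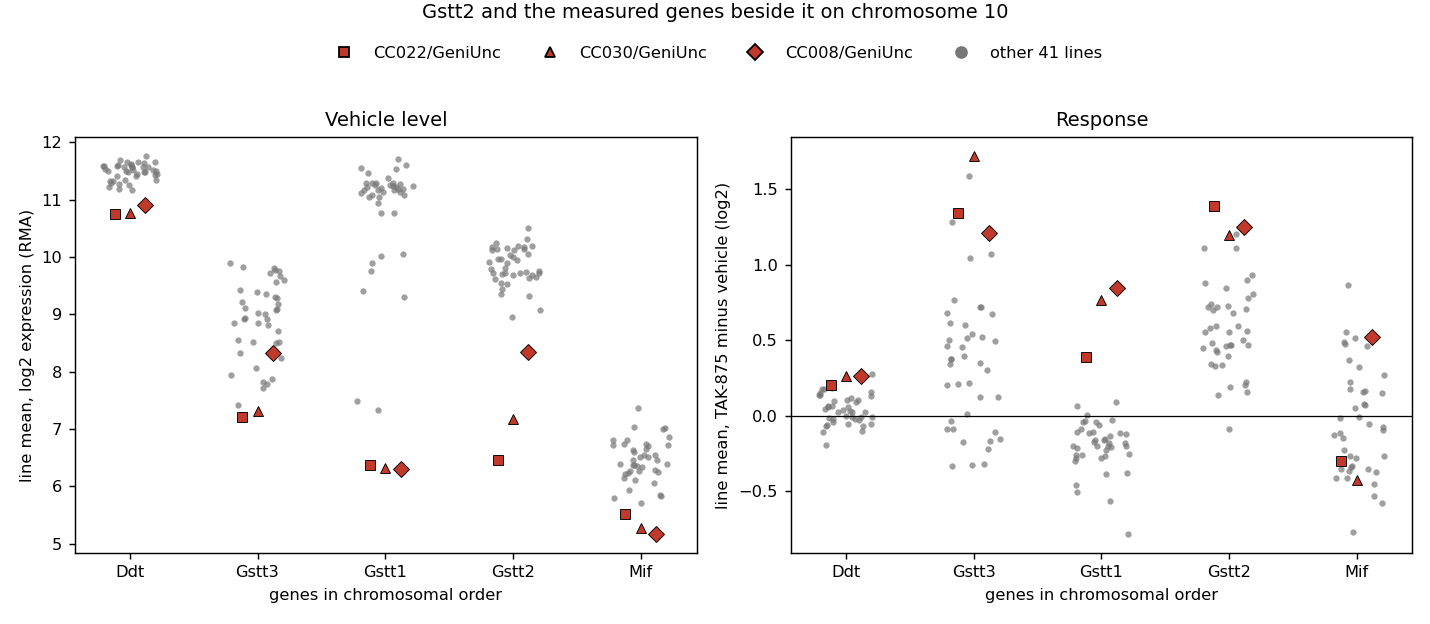
Vehicle level (left) and response (right) of Gstt2 and of Ddt, Gstt3, Gstt1 and Mif beside it, 1 point per line, with CC022/GeniUnc, CC030/GeniUnc and CC008/GeniUnc marked. The measured genes Derl3 and Smarcb1, beyond Mif, are not shown. The 3 marked lines are the lowest for Ddt, Gstt1, Gstt2 and Mif at vehicle level and lie high in response for Gstt1, Gstt2 and Gstt3.

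Lines kept their order from vehicle to TAK-875 mice. Line means of different mice correlated across the 44 lines at r = 0.88 for Nqo1 (rho = 0.88), 0.91 for Gstt2 (rho = 0.72), 0.64 for Ephx1 (rho = 0.68) and 0.57 for Osgin1 (rho = 0.59). The permutation p was 1e-05 for Nqo1, Ephx1 and Gstt2, the smallest that 100000 permutations can give, and 4e-05 for Osgin1. Without CC022/GeniUnc and CC030/GeniUnc the r of Gstt2 was 0.71, and without the 2 most extreme lines of each of the others it was 0.86 for Nqo1, 0.69 for Ephx1 and 0.60 for Osgin1. The spread of line means was narrower after TAK-875 for Nqo1 (SD 0.80 against 0.89), Ephx1 (0.23 against 0.32) and Gstt2 (0.60 against 0.75), and about equal for Osgin1 (0.46 against 0.45); this difference in spread was not tested.

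Responses of the rising genes were only loosely tied across lines. Pearson's r of line responses was 0.38 for Nqo1 with Gstt2, 0.34 for Nqo1 with Ephx1 and 0.33 for Ephx1 with Gstt2, each with an adjusted permutation p of 0.0590 over the 6 pairs of genes (raw p = 0.0111, 0.0258 and 0.0295). Spearman's rho was 0.37, 0.31 and 0.40, with adjusted permutation p = 0.0407, 0.0772 and 0.0407. Without the 2 lines farthest from the median on the first gene's axis, r was 0.44, 0.38 and 0.48. With each array centred on its median, Nqo1 with Gstt2 (r = 0.40) and Ephx1 with Gstt2 (r = 0.42) passed, both at an adjusted permutation p of 0.0222. Osgin1 did not pass with any of the others, at r = -0.17 with Nqo1, 0.17 with Ephx1 and 0.09 with Gstt2 (adjusted permutation p = 0.316, 0.316 and 0.559). With 2 lines left out in the same way these were -0.09, 0.33 and 0.05, and the raw permutation p of Osgin1 with Ephx1 was 0.0344 without CC065/Unc and CC044/Unc. Between pairs of the same line, as deviations from the line's mean response over 171 pairs, r was 0.42 for Nqo1 with Gstt2, 0.26 for Ephx1 with Gstt2 and 0.24 for Nqo1 with Ephx1. Osgin1 was at 0.21 with Gstt2, 0.04 with Nqo1 and 0.03 with Ephx1. Values of 1 pair share their arrays, and these are descriptions.

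**Figure D4:**
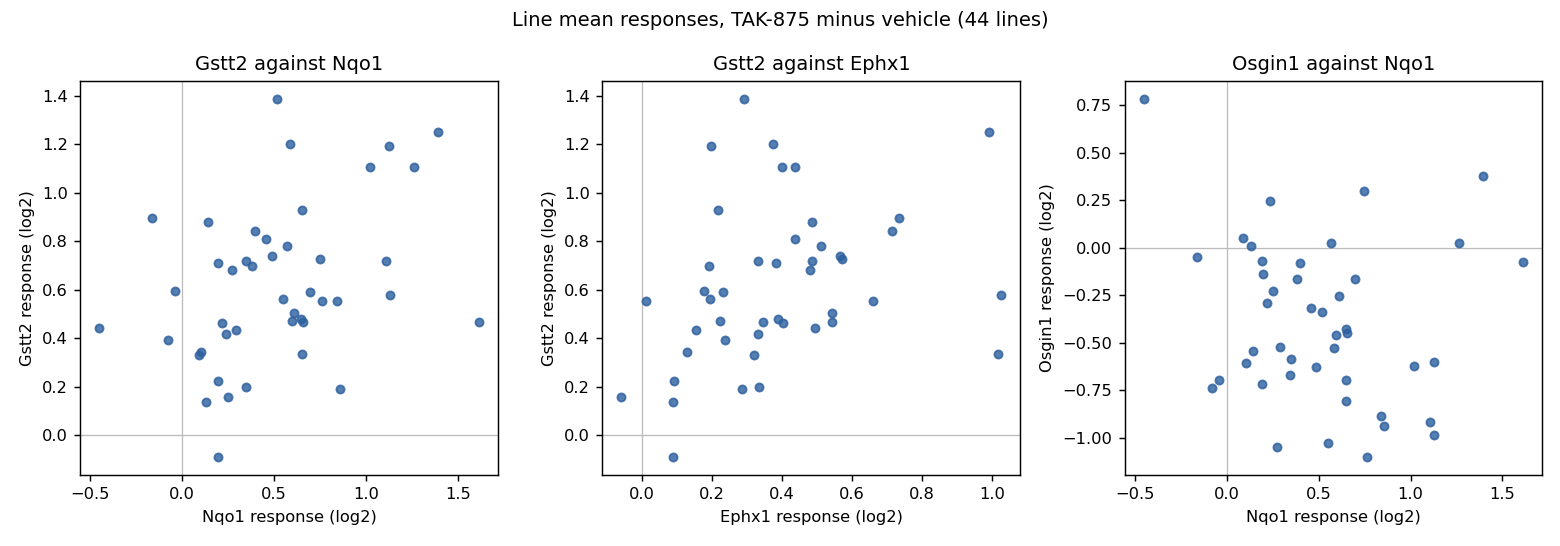
Line mean responses (TAK-875 minus vehicle, log2) of Gstt2 against Nqo1, Gstt2 against Ephx1 and Osgin1 against Nqo1, 1 point per line. Points scatter widely around a rising trend in the left and middle panels (r = 0.38 and 0.33) and show no clear trend at the right (r = -0.17).

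Vehicle levels of the 4 genes were not clearly tied to each other. Nqo1 with Ephx1 had r = 0.39 (adjusted permutation p = 0.0517), which was 0.26 without CC019/TauUnc and CC008/GeniUnc. The other 5 pairs of genes had r between -0.13 and 0.28 and did not pass. CC008/GeniUnc was the lowest line for both Nqo1 and Ephx1 and the third lowest for Gstt2. The same vehicle mouse of that line held the lowest value of all mice for Nqo1 (2.88) and for Ephx1 (9.03). CC008/GeniUnc was also among the 3 strongest responders for Nqo1, Ephx1 and Gstt2, but level and response share the vehicle arrays, that mouse included. With CC007/Unc and CC052/GeniUnc it was 1 of the 3 lines in which Nqo1, Ephx1 and Gstt2 all passed. Of all genes tested within these lines, 0.693% rose in CC008/GeniUnc, 2.34% in CC007/Unc and 8.64% in CC052/GeniUnc. In CC007/Unc Gstt2 was at 9.33, 9.79, 9.70 and 8.96 in vehicle mice and at 10.51, 9.83, 9.68 and 10.63 in TAK-875 mice, so 2 pairs carried most of its response of 0.72 ± 0.84. In the same line Nqo1 rose from 6.25, 6.98, 7.00 and 6.63 to 8.05, 7.52, 7.72 and 8.00.

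Among other targets of NRF2 the picture was mixed. Of a list of 50 targets, which includes Nqo1, Ephx1 and Osgin1, 39 were measured. In limma 13 rose, 6 fell and 20 did not pass, against 15.3% of all genes rising and 11.9% falling. The median response of the list was 0.03, against 0.0056 over all genes. Besides Nqo1 and Ephx1, the largest rise was that of the efflux pump Abcc3 (0.50 ± 0.29, SD, 44 lines). The sulfiredoxin Srxn1 (0.37 ± 0.44), the biliverdin reductase Blvrb (0.36 ± 0.22) and Pir (0.33 ± 0.25) also rose. Besides Osgin1, the largest falls were those of the malic enzyme Me1 (-0.26 ± 0.48) and of Gclc, the catalytic subunit of glutamate-cysteine ligase (-0.16 ± 0.30). Of the other classical targets, the glutathione reductase Gsr rose by 0.26 ± 0.18 (limma adjusted p = 1.63e-10) and was higher in 41 lines. Gclm was at -0.02, Hmox1 at 0.04 and Txnrd1 at 0.07, and none of these 3 passed.

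**Figure D5:**
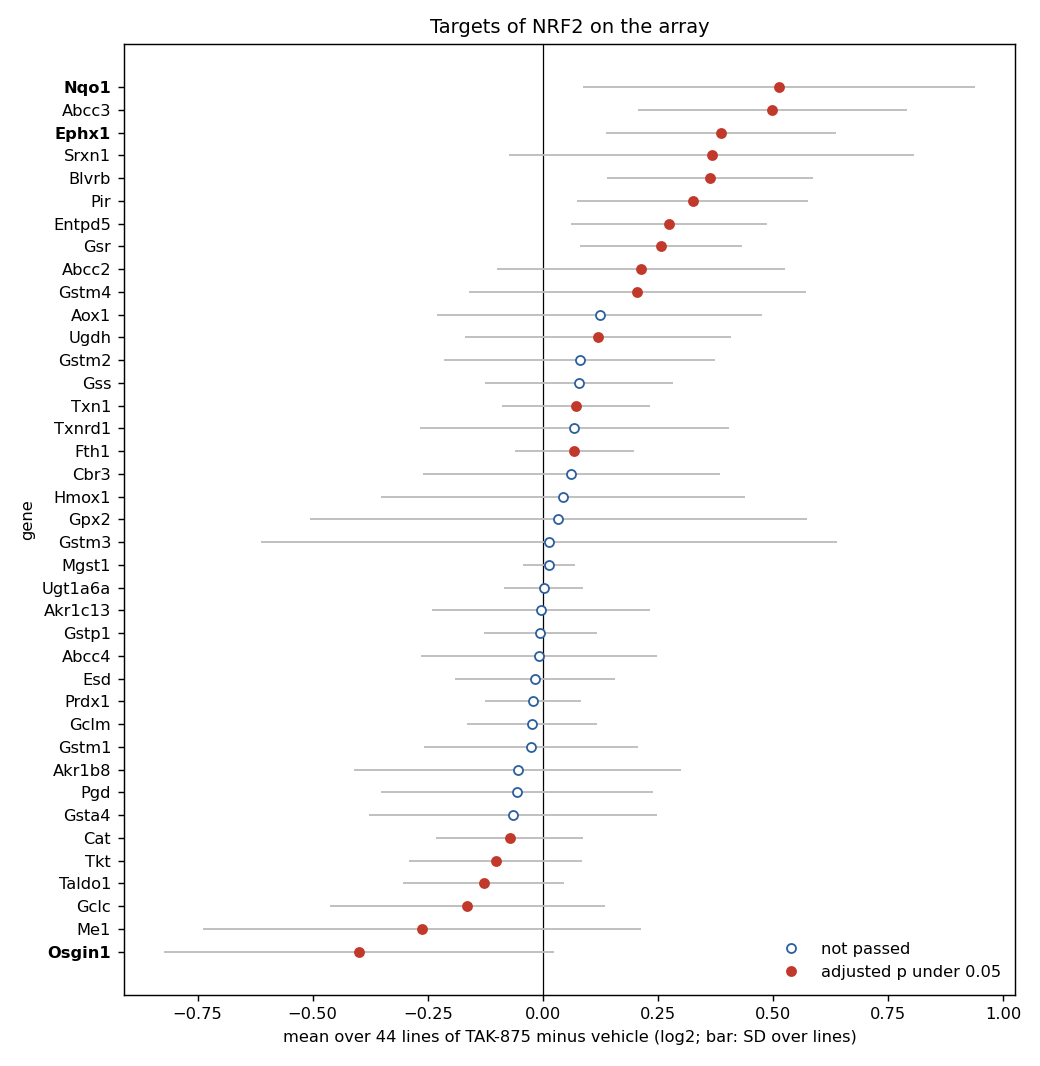
Mean response over the 44 lines (TAK-875 minus vehicle, log2) of the 39 measured NRF2 targets, with bars for the SD over lines and filled points for an adjusted p under 0.05. Nqo1 is at the top at 0.51, Osgin1 at the bottom at -0.40, and 20 of the 39 points are open.

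Of 11 regulators of NRF2, 9 were measured, and in limma 3 rose and 6 did not pass, where 15.3% of all genes rose. The small MAF genes Maff (0.39 ± 0.56, limma adjusted p = 1.68e-04) and Mafk (0.17 ± 0.28) and the repressor Bach1 (0.17 ± 0.42) rose. Nfe2l2, the gene of NRF2 itself, was at -0.07 ± 0.42 (limma adjusted p = 0.466). Mafg was at -0.02, Bach2 at -0.05, Nfe2l1 at -0.0043, and the ligase subunits Cul3 and Rbx1 at 0.0064 and 0.029. Keap1 and Sqstm1 were not measured. NRF2 is controlled largely at the protein level, which these arrays do not measure.

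Within the families of the 4 genes, responses went both ways. Of all genes, 15.3% rose and 11.9% fell. Of 18 measured glutathione transferases 3 rose, near the share of all genes, while 5 fell and 10 did not pass. Gstt2, Gstt3 and Gstm4 (0.21 ± 0.37) rose, and the largest falls were those of Gstm6 (-0.19 ± 0.37), Gstm7 (-0.16 ± 0.25) and Gstt1 (-0.14 ± 0.28). Of 7 measured epoxide hydrolases and quinone and carbonyl reductases 4 rose and 2 fell. The soluble epoxide hydrolase Ephx2 rose by 0.27 ± 0.21 and Cbr4 by 0.18 ± 0.28 beside Nqo1 and Ephx1, while the quinone reductase Nqo2 and the cytochrome b5 reductase Cyb5r3 were both at -0.15. Of 29 measured targets of the xenobiotic receptors CAR and PXR, a list that holds Ephx1, Gstt1 and Gstt3, 8 rose and 6 fell, again beside 15.3% and 11.9% of all genes, with a median of 0.01. Ephx1, Abcc2 and Abcc3 stand on both this list and that of NRF2 targets and count among the rises of each. Alas1, the entry enzyme of heme synthesis, rose by 0.59 ± 0.56, and Sult5a1 fell by 0.51 ± 0.43. Cyp2b10, the standard readout of CAR, was at -0.10 ± 0.80 and did not pass.

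For each gene the most alike genes over the 44 lines were named by Pearson's r, as a description with no test. The response of Nqo1 was most like those of Nr1i3 (r = 0.66), which encodes CAR, of Pir (0.61) and of Arpp19 (0.58), and least like that of Egfr (-0.57). Nr1i3 itself rose by 0.40 over the lines (limma adjusted p = 2.99e-09). Mcrip2 (0.66), Aqp11 (0.62) and Smim4 (0.59) were most like Ephx1, and Tifa (-0.70) least. For Osgin1 the closest were weaker, Ocrl (0.46), Slc51b (0.45) and the immediate early gene Egr1 (0.44), and the krüppel-like factor Klf15 was at -0.60. After Gstt3, Ddah1 (0.62) and Pctp (0.59) were most like Gstt2, and C4bp (-0.53) least. In vehicle level, Nqo1 was most like the heme transporter Slc48a1 (0.70), Slc16a5 (0.64) and Map2k3 (0.61). Ephx1 was closest to Tbx3 (0.63), Plin5 (0.59) and G0s2 (0.58), of which the latter pair act at lipid droplets. Osgin1 was closest to Sod3 (0.61), Tfpi (0.56) and Pdilt (0.50), and Gstt2 to Ddt, Gstt1 and Atp5d (0.74).

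Markers of other liver cells moved as well, where 11.9% of all genes fell and 15.3% rose. Of 12 measured Kupffer cell markers 10 fell and the others did not pass, with a median of -0.21, and their mean level was between 6.20 and 7.44 over the vehicle groups of the lines and between 6.01 and 7.36 over the TAK-875 groups. Of 11 markers of sinusoidal endothelium 5 fell, of 9 stellate cell markers 2, of 3 red blood cell markers 2, of 3 T and B cell markers 1, and 0 of 6 neutrophil and 0 of 3 cholangiocyte markers passed in limma, with or without the adjustment. In whole liver, fewer cells of a type and less RNA per cell cannot be told apart. Whether these shifts had a part in the fall of Osgin1 or the rises of the others was not tested. Of the 8 hepatocyte markers, 2 rose and 2 fell, with a median of -0.01.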

How the data were processed

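Liver RNA of 342 mice was measured on Affymetrix HT MG-430 PM arrays. The submitters' processing notes name RMA and Affymetrix Power Tools, whose versions were not given in the sources used. In this table the authors deposited log2 expression values, 1 per probe set and array. RMA puts arrays on a common scale, yet array medians differ, so other scalings were tried. Scanner files and detection calls were not used here, so dim probe sets were kept.

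Of 16397 probe sets, 13083 name 1 gene, 261 several and 3053 none, and 13063 of the first kind matched a RefSeq symbol (GRCm38.p6, used for names, order and promoters). Each gene took its brightest single-gene probe set. Groups, lines and pairs came from the labels. Limma 3.58.1 (R 4.3.3) tested line means of the pair differences against 0, and line differences in response and vehicle level by moderated F tests, with Benjamini-Hochberg adjustment over all 9093 genes. The fit was tested on simulated data for the mean over lines with 9093 genes. There 90% of changes of 0.25 and 99% of changes of 0.5 log2 were recovered, and 2 of 8893 unchanged genes were called. Simulated line effects averaged 0 over the lines and genes were independent. These rates thus leave out the error that differences between lines add to the mean. Correlations used 100000 permutations (Python 3.11.15, numpy 2.4.6, pandas 2.3.3).

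The labels state that mice were dosed in pairs. As a check, each array's deviation from the mean of its group was correlated with that of its partner. The mean r was 0.0361, and 60 of 171 pairs exceeded 0.1. For arrays of a line that are not partners it was -0.0117. Deviations cancel out within a group, so this second value is tied to the first and is no separate baseline. The check therefore cannot decide whether partners are more alike.

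The 4 genes and all lists were chosen with earlier results of these data known. Named besides them were the 3 genes most like each in response and in level, the gene least like it in response, all NRF2 regulators, and up to 3 called rises and falls per list. Named lines were the 3 highest and 3 lowest in response and level for each gene, with CC041/TauUnc, CC005/TauUnc, CC052/GeniUnc and CC007/Unc where a gene was called there. Further targets, lines and neighbours of Gstt2 were named after their values were seen. Alternatives were 2 further scalings, the mean of all probe sets, leaving out the dimmest 25% of genes, each replicate number, each line or the pairs with a poorly correlated array (more than 3 interquartile ranges below the first quartile), and fits with and without the pair as a block. The series title gives another compound number than the labels, which were followed.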

Additional observations from a re-analysis of the deposited data

Results flagged for a closer look

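The response to TAK-875 differed between lines for 3 of the 4 genes by limma's moderated F test. The adjusted p was 0.0178 for Nqo1, 0.00158 for Ephx1 and 1.42e-04 for Gstt2. For Osgin1 it was 0.139. Of all genes, 16.2% passed this test. The call of Nqo1 was lost without the pairs numbered 1, 2 or 3 (0.0998, 0.154 and 0.180) and that of Ephx1 without those numbered 2 or 3 (0.0572 and 0.106).

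Among the 82 groups of 4 mice looked at, 4 held a mouse whose gap to the nearest of the others passed Dixon's 95% limit, and chance flags about 1 group in 20. For Nqo1, 1 TAK-875 mouse of CC008/GeniUnc (strain pair 3) was at 6.60 while the others lay between 4.66 and 4.91, and without that pair the response of the line was 1.21 in place of 1.39. A TAK-875 mouse of CC058/Unc (strain pair 2) was at 5.55 for Nqo1, against 5.32 to 5.34 in the others. Its vehicle partner, at 3.63, was farther from the other vehicle mice, at 4.15, 4.84 and 4.85. Without the pair the response was 0.72 in place of 1.02, a change that came mostly from the vehicle partner. For Ephx1, 1 vehicle mouse of CC032/GeniUnc (strain pair 2) was at 11.2, against 12.06 to 12.19, and without its pair the response of that line, 0.19, was near 0. For Osgin1, 1 vehicle mouse of CC004/TauUnc (strain pair 1) was at 10.1, against 9.70 to 9.77, and without its pair the response was -0.97 in place of -1.05.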

How the results depend on the processing

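Every alternative kept the direction and the call of the mean response of the 4 genes, which ran from 0.49 to 0.54 for Nqo1, 0.37 to 0.40 for Ephx1, -0.46 to -0.35 for Osgin1 and 0.59 to 0.64 for Gstt2. With the study pair as a replicate block and as the unit, they were 0.52, 0.38, -0.40 and 0.62, and no call of these 4 changed. With no replicate block, the differences between lines in response kept their calls (adjusted p = 0.0447 for Nqo1, 0.0248 for Ephx1, 0.215 for Osgin1 and 0.00116 for Gstt2). With each replicate number left out, the adjusted p of the difference between lines in response ran from 0.0400 to 0.180 for Nqo1, 0.00988 to 0.106 for Ephx1, 0.167 to 0.298 for Osgin1 and 0.00102 to 0.0380 for Gstt2, while the number of all genes that passed this test, 1474 with all pairs, ran from 129 to 690. The numbers of lines called then ran from 2 to 5 for Nqo1, 5 to 11 for Ephx1, 0 to 1 for Osgin1 and 8 to 13 for Gstt2. Without the pairs that hold a poorly correlated array, Osgin1 differed between lines (adjusted p = 0.0455) and was called in 2 lines. With arrays centred on their medians, the correlation of responses was 0.395 for Nqo1 and Gstt2 and 0.420 for Ephx1 and Gstt2, and that of vehicle levels 0.397 for Nqo1 and Ephx1, and these passed. After quantile normalization again, Nqo1 and Gstt2 passed at 0.424. Leaving out a replicate number gave 0.256 to 0.518 for the responses of Nqo1 and Gstt2, 0.208 to 0.392 for Nqo1 and Ephx1, 0.195 to 0.369 for Ephx1 and Gstt2, and 0.286 to 0.425 for vehicle levels of Nqo1 and Ephx1, some of which passed. The causes were not tested. Signal over background was not used, so the dimmest values of Nqo1 have no stated floor.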

Other observations

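Mice of 1 inbred line differed widely in Nqo1 in CC015/Unc, a line picked for this after its values were seen. Its vehicle mice were at 8.92, 5.62, 7.87 and 6.40, the first being the highest Nqo1 value of all 342 mice, while their TAK-875 partners were at 7.73, 6.87, 7.45 and 7.54.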
